A study of Mus musculus with 2 samples.

Results

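The interferon-stimulated genes of mouse spleen were examined as a set of 41 named genes, chosen by name and taken from the GENCODE vM21 annotation of mm10, and were set beside all 21938 protein-coding genes of the reference chromosomes. A peak was assigned to the promoter of a gene when it overlapped the 1 kb on either side of any annotated transcription start site (TSS) of that gene. It was assigned to the gene region when it overlapped the gene body plus 10 kb on either side. All 41 names were found in the annotation, and Mx2 is listed there as a polymorphic pseudogene and is therefore a member of the set without being among the 21938.

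The method, scFFPE-ATAC, isolates nuclei from formalin-fixed, paraffin-embedded (FFPE) tissue, cuts and tags their open DNA with barcoded Tn5 transposase, and marks each nucleus by rounds of split-and-pool ligation. There were 2 libraries of mouse FFPE spleen, 1 per condition. The methods give the mice as young adults of the C57BL/6J strain of both sexes, and neither labels nor methods name a genetic change. In the first (the no-gradient library), the nuclei were not purified by density gradient centrifugation, and its list held 25343 peaks covering 8.81 Mb. For mouse FFPE spleen without this step, the study reports more duplicate reads, weaker signal at TSSs and a smaller share of reads in peaks than with it. It also reports that the cell types did not separate clearly without this step. The second was labelled as a 50 µL reaction system (the 50 µL library), and its list held 89382 peaks covering 37.9 Mb. The methods give a larger reaction volume as the general setting of the single-cell assay, with no volume named for the no-gradient library. Whether density gradient centrifugation was used for the 50 µL library and whether the same animal gave both libraries are not stated in the sources used here. No infection or interferon treatment is named for either library. Peaks were called on each library as a whole, so no cell type can be assigned to a peak, and fewer accessible cells cannot be told apart from weaker accessibility per cell. With 1 library per condition there was no replicate check and no test between the libraries. Neither reads nor cells are in the lists, so the depth is unknown, and peak values depend on it.

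Type I interferons bind the receptor made of IFNAR1 and IFNAR2, and the kinases JAK1 and TYK2 then activate the transcription factor complex ISGF3. This complex, of which IRF9 is a subunit, binds the interferon-stimulated response element (ISRE), a pair of GAAA repeats in the promoters of interferon-stimulated genes. Interferon gamma acts through a different element, the gamma-activated site (GAS). The products of the induced genes sense or degrade viral RNA, block entry and translation, and attack the vacuoles of intracellular pathogens. In spleen, B cells, T cells and red pulp macrophages can all respond to interferon, and some of these genes are transcribed at a low level without infection.

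Promoter sequences that carry the ISRE letters are shown first, since some of the peaks described afterwards lie on them. The ISRE was searched as GAAANNGAAA on both strands, and tandem GAAA repeats were counted once for each start. The 4 stretches here are the 250 bases before the RefSeq start of 4 members (GRCm38, the assembly of mm10), written 5′ to 3′ in the direction of the gene, with the ISRE letters in capitals. Isg15 (chr4:156200819-156201068, minus strand) was chosen for its run of overlapping matches, and Ifit1 (chr19:34640639-34640888, plus strand) for its pair of matches on the opposite strand. Rsad2 (chr12:26456453-26456702, minus strand) and Bst2 (chr8:71537473-71537722, minus strand) were chosen because their ISREs lay under promoter peaks that ranked high in the 50 µL library.
Isg15: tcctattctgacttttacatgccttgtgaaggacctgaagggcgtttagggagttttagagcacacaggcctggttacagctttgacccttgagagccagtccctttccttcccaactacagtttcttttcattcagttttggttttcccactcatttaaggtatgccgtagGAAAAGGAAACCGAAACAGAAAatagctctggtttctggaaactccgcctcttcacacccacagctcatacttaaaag
Ifit1: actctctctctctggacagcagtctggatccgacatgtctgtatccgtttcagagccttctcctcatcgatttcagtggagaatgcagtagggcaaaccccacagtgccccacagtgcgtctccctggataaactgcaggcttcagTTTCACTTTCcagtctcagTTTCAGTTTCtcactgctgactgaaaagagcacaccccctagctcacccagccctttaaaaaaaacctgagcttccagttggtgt
Rsad2: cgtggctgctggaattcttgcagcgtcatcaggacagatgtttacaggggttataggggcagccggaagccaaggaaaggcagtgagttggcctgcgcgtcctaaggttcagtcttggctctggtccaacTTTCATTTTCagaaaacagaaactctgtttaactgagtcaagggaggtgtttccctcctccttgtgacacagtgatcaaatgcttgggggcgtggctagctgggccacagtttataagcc
Bst2: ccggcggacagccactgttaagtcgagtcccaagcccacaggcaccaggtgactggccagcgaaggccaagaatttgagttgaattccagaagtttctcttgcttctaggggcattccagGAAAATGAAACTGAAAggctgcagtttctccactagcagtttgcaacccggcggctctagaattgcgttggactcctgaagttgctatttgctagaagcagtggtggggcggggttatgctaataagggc

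A second group of 30-base stretches shows single ISREs with 10 flanking bases on either side, 5′ to 3′ on the strand that reads GAAA (GRCm38). The first 7 lay inside promoter peaks of both libraries. They belong to Oasl2 (chr5:114897469-114897478, minus strand), Zbp1 (chr2:173219007-173219016, plus strand), Gbp7 (chr3:142530283-142530292, minus strand), Parp9 (chr16:35938972-35938981, minus strand), Isg20 (chr7:78913926-78913935, plus strand), Igtp (chr11:58199522-58199531, plus strand) and Irgm2 (chr11:58214913-58214922, plus strand). The coordinates are those of the 10 capital letters. The last 4, of Ifit3 (chr19:34583373-34583382, minus strand), Dhx58 (chr11:100704266-100704275, plus strand), Ddx58 (chr4:40239814-40239823, plus strand) and Gbp3 (chr3:142559999-142560008, minus strand), lay inside no peak of either library.
Oasl2: gacaagaattGAAAGTGAAActgcagggag
Zbp1: aaagggtgtcGAAATCGAAAttgaaatcgg
Gbp7: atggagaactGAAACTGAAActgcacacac
Parp9: ctggggaatcGAAACTGAAActttgcctct
Isg20: taatgaaccaGAAACTGAAActaaaacagg
Igtp: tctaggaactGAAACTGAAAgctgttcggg
Irgm2: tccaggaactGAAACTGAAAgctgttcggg
Ifit3: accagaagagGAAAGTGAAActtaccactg
Dhx58: ctctagaaatGAAACTGAAAcaaggggagg
Ddx58: ctggccatagGAAATCGAAActgcctcagg
Gbp3: ctgggaaataGAAACTGAAActgtgtcctg

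Promoter peaks were found at 38 of the 41 genes in the 50 µL library (92.7%, exact 95% interval 80.1% to 98.5%), where 56.6% of all protein-coding genes had a peak at the promoter. In the no-gradient library 23 of 41 had a promoter peak (56.1%, 39.7% to 71.5%), against 43.7% of all protein-coding genes, a share inside the interval of the set. The intervals cover counting error only. All 23 genes also had a promoter peak in the 50 µL library, and 43.5% of all protein-coding genes had a promoter peak in both. The other 15 members with a peak in the 50 µL library had none in the no-gradient library (36.6%, against 13.0% of all protein-coding genes). At Ifitm3, Ifi47, Gbp2, Ddx58, Oas3 and Parp14 the nearest no-gradient peak lay 1373 bp to 1992 bp from a TSS. These peaks fell just outside the 1 kb window. At the rest of the 15 it lay 2882 bp or more away. Only Ifit3, Oasl1 and Ifi44 had a promoter peak in neither list.

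Promoter peaks of the members were mostly weak in the 50 µL library, where the most significant one had a fold enrichment (pileup at the summit over the local background, as MACS2 gives it) under 4 at 24 of 38 genes (63.2%), against 32.7% of all protein-coding genes with a promoter peak there. In the no-gradient library it was under 4 at 2 of 23 (8.70%), against 8.67%. When only peaks with a fold enrichment of at least 4 were counted, 14 of 41 members remained in the 50 µL library (34.1%, 20.1% to 50.6%), against 38.4% of all protein-coding genes. The same rule left 22 of 41 in the no-gradient library (53.7%, 37.4% to 69.3%), against 39.9%. Only 8 of 41 had such a promoter peak in both libraries (19.5%), against 32.1% of all protein-coding genes. The members thus no longer had the larger share, but this difference lies within the counting error of 8 of 41. When the 50 µL list was reduced to its 25343 most significant peaks, the length of the other list, 21 of 41 members had a promoter peak (51.2%, 35.1% to 67.1%), against 45.2% of all protein-coding genes. At equal length both lists held a promoter peak at 15 of 41 members (36.6%, 22.1% to 53.1%), against 40.0% of all protein-coding genes, a share inside that interval. The no-gradient list alone held one at 8 (19.5%, against 3.71% of all protein-coding genes: Cmpk2, Gbp7, Ifih1, Ifit1, Igtp, Oasl2, Rnf213 and Usp18), and the shortened 50 µL list alone at 6 (14.6%, against 5.28%: Ddx58, Gbp2, Ifi47, Mx1, Mx2 and Parp14).

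The peaks were also ranked by −log10 q, the significance MACS2 gave the summit after correction. Among all protein-coding genes with a promoter peak, the most significant peak of a member had a median percentile of 39.5 in the no-gradient library and of 24.2 in the 50 µL library. It lay above the median of those genes at 10 of 23 members in the no-gradient library and at 9 of 38 in the 50 µL library. The median −log10 q of this peak was 11.8 for members and 13.6 for all genes in the no-gradient library, and 25.4 against 40.0 in the 50 µL library.

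**Figure D1:**
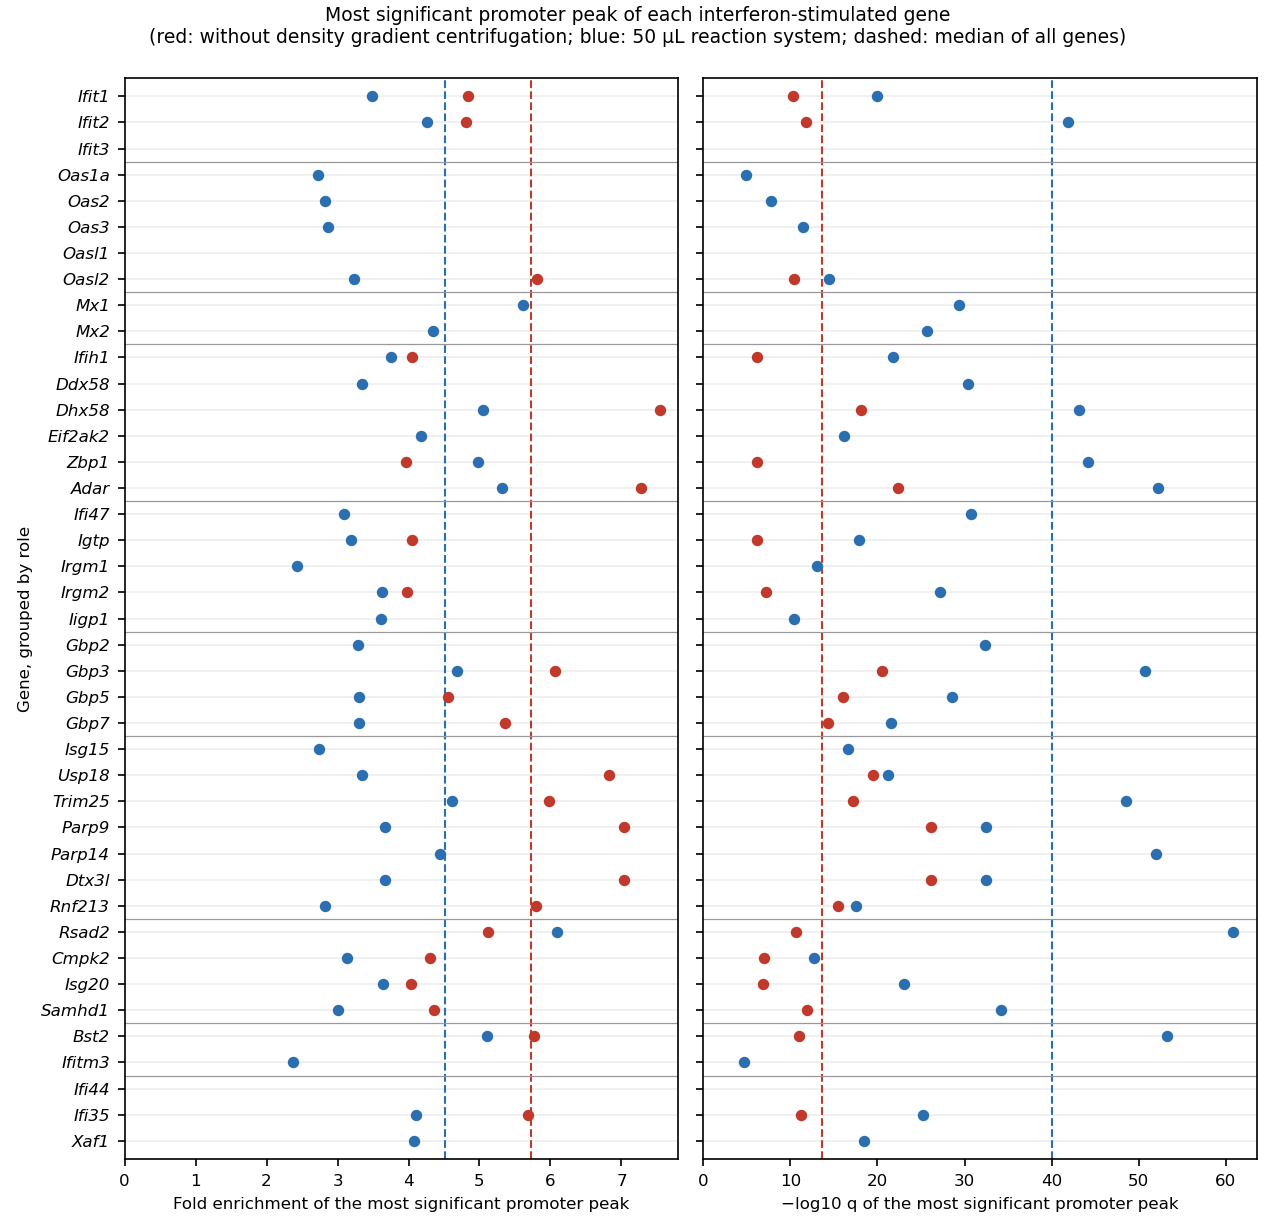
Fold enrichment (left) and −log10 q (right) of the most significant promoter peak of each member in the no-gradient library (red) and the 50 µL library (blue), with genes grouped by role and no point where a gene had no promoter peak. Dashed lines are the medians over all protein-coding genes with a promoter peak (−log10 q of 13.6 and 40.0), and 10 red points of 23 and 9 blue points of 38 lie to the right of them on the −log10 q axis.

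The Ifit genes, whose products bind viral RNA that lacks host cap methylation, lie in a cluster on chromosome 19, and 2 of 3 had a promoter peak in each library. At Ifit1 the no-gradient peak (chr19:34640693-34641037) had a fold enrichment of 4.84 and a −log10 q of 10.3, and the 50 µL peak had 3.48 and 19.9. Both peaks covered the pair of ISREs printed above, with summits 34 bp apart. At Ifit2 the values were 4.81 and 11.8 in the no-gradient library (chr19:34550585-34550844) and 4.26 and 41.9 in the 50 µL library, with no ISRE near either summit. Ifit3 had no promoter peak, its nearest 50 µL peak lay 8055 bp from its start, and its window holds 2 ISREs. Of the 32-base sequences around the start of Ifit3, 62.9% occur elsewhere in the genome, the highest share among the members, and reads from such sequences can be lost or misplaced in alignment. The part of this in the missing peak was not tested.

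The OAS genes encode synthetases that make the second messenger for RNase L, or catalytically inactive relatives of them. In the no-gradient library 1 of 5 had a promoter peak, and in the 50 µL library 4 of 5. That gene was Oasl2, where the no-gradient list held a peak with its summit near an ISRE pair (chr5:114897352-114897593, fold enrichment 5.81, −log10 q 10.4), and the overlapping 50 µL peak had 2.51 and 6.70. The most significant 50 µL promoter peak of Oasl2, at a more distant TSS, had 3.23 and 14.4. The ISRE pair of Oasl2 belongs to an internal TSS, and its own 5′ end had a separate peak in the 50 µL library only. Oas1a, Oas2 and Oas3 had weak 50 µL peaks, with fold enrichments of 2.72, 2.83 and 2.86 and −log10 q of 4.90, 7.77 and 11.4, the last at chr5:120777672-120777932. The peaks of Oas2 and Oas3 covered an ISRE, while the nearer ISRE of Oas1a lay 106 bp outside its peak. Oasl1 had no promoter peak, and its nearest 50 µL peak ended 2741 bp from a TSS.

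The Mx family includes dynamin-like GTPases that block viral nucleocapsids. Both Mx genes, of which Mx2 is annotated as a polymorphic pseudogene, had a promoter peak in the 50 µL library and no peak in the gene region in the no-gradient library. The Mx1 peak (chr16:97462761-97463260) had a fold enrichment of 5.61 and a −log10 q of 29.4. The Mx2 peak (chr16:97534952-97535451) had 4.34 and 25.7. Each of these peaks was 500 bp wide, and they reached 353 bp and 356 bp upstream of the 5′ end of their gene. The windows of Mx1 and Mx2 share 142 runs of 32 identical bases, more than any other pair of members whose windows do not overlap, and a read that lies within such a run cannot be assigned to 1 of the 2 genes. This pair was examined after the peaks had been seen, and the part of the shared sequence in the 2 peaks was not tested. Only Mx2 has ISRE letters in its window, under its peak and 203 bp from the summit.

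Genes for the sensing and editing of double-stranded nucleic acid had promoter peaks at 4 of 6 members in the no-gradient library and at 6 of 6 in the 50 µL library. At Adar, the RNA-editing enzyme, the most significant peak lay at an internal TSS, with its no-gradient summit 15752 bp from the 5′ end (chr3:89730556-89730960), where the fold enrichment was 7.28 with a −log10 q of 22.4 in the no-gradient library and 5.32 with 52.2 in the 50 µL library. The 2 summits there were 7 bp apart. The 5′ end of Adar also had a peak in both lists, with fold enrichments of 4.79 and 6.74. At Dhx58, the RIG-I-like receptor LGP2, both libraries had a peak in the gene (chr11:100702562-100702882 in the no-gradient list), with fold enrichments of 7.54 and 5.05 and −log10 q of 18.1 and 43.1. The summit of the no-gradient peak lay 1582 bp downstream of the 5′ end, and the ISRE at the 5′ end, printed above, lay 1163 bp from the nearest 50 µL peak.

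Zbp1, a sensor of Z-form nucleic acid, had the most ISRE matches of any member, with 4 in 2 overlapping pairs. Its peaks had a fold enrichment of 3.97 and a −log10 q of 6.19 in the no-gradient library (chr2:173218864-173219162), and 4.98 and 44.2 in the 50 µL library. The summits were 16 bp apart, and 4 ISRE matches lay within 100 bp of each. At Ifih1, which encodes MDA5, the values were 4.05 and 6.11 in the no-gradient library (chr2:62646066-62646355) and 3.76 and 21.8 in the 50 µL library. Ddx58, which encodes RIG-I, and Eif2ak2, the kinase PKR, had promoter peaks in the 50 µL library only, with fold enrichments of 3.34 and 4.18 at their most significant peaks. The ISRE at the start of Ddx58 fell in a gap between peaks, 79 bp from one and 391 bp from the other.

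The immunity-related GTPases (IRG), which act on pathogen vacuoles, had promoter peaks at 2 of 5 members in the no-gradient library and at 5 of 5 in the 50 µL library. Igtp and Irgm2 have neighbouring 5′ ends and share a promoter peak (chr11:58199359-58199831 in the no-gradient list), with a fold enrichment of 4.05 and a −log10 q of 6.11 in the no-gradient library and 3.19 and 17.9 in the 50 µL library. Irgm2 had a further peak at an internal TSS (chr11:58214856-58215055), with 3.98 and 7.21, and 3.62 and 27.2. The ISREs under the shared and the internal peak are the printed Igtp and Irgm2 stretches, which hold the same letters in capitals. Around the 5′ ends of Igtp and Irgm2, 23.4% and 20.2% of 32-base sequences occur elsewhere in the genome. Ifi47 and Irgm1 had 50 µL peaks with fold enrichments of 3.09 and 2.43 and −log10 q of 30.8 and 13.1, that of Ifi47 at an internal TSS (chr11:49087323-49087584). Iigp1 had a 50 µL peak with 3.61 and 10.4, and 35.4% of the 32-base sequences around its 5′ end occur elsewhere.

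Guanylate-binding proteins (GBP), which coat pathogen vacuoles and bacteria, had promoter peaks at 3 of 4 members in the no-gradient library and at 4 of 4 in the 50 µL library. Gbp3, Gbp5 and Gbp7 lie in 1 region of 99.2 kb with 6 peaks in the no-gradient list and 15 in the 50 µL list. At Gbp3 the peak downstream of the 5′ end (chr3:142560295-142561040) had a fold enrichment of 6.07 and a −log10 q of 20.5 in the no-gradient library, and the overlapping 50 µL peak had 4.68 and 50.7. The ISREs in the TSS windows of Gbp3 lay between its 2 promoter peaks of the 50 µL list, and a further match outside these windows lay within 100 bases of the summit of the downstream peak. At Gbp5 the values were 4.55 and 16.0 in the no-gradient library (chr3:142493625-142493874) and 3.30 and 28.6 in the 50 µL library, 5 bp apart by summit. The ISRE of Gbp5 lay under a second peak, near an internal TSS, in both lists. This peak had 2.54 and 2.98 in the no-gradient library and 3.42 and 27.6 in the 50 µL library. By −log10 q it ranked 25250 of the 25343 no-gradient peaks, near the floor of that list. At Gbp7 (chr3:142530084-142530465 in the no-gradient list) they were 5.36 and 14.3, and 3.30 and 21.6, and both peaks covered an ISRE. Gbp2 had promoter peaks in the 50 µL library only, the most significant (chr3:142621232-142621607) with 3.29 and 32.4. A no-gradient peak 1562 bp from its TSS overlapped its other 50 µL promoter peak.

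ISG15, a ubiquitin-like modifier, and the enzymes around it and around ADP-ribose had promoter peaks at 5 of 7 members in the no-gradient library and at 7 of 7 in the 50 µL library. Isg15 itself was among those without a peak in the no-gradient list, where its gene region held none, and its 50 µL peak (chr4:156200788-156201128) had a fold enrichment of 2.74 and a −log10 q of 16.6. That peak covered the 3 overlapping ISRE matches printed above. At Usp18, the protease that removes ISG15 and damps the receptor, the values were 6.82 and 19.5 in the no-gradient library (chr6:121245653-121246108) and 3.35 and 21.2 in the 50 µL library, with summits 4 bp apart.

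At Trim25, a ubiquitin ligase of the RIG-I pathway, the fold enrichment was 5.98 with a −log10 q of 17.2 in the no-gradient library (chr11:88999243-88999661) and 4.61 with 48.6 in the 50 µL library. Parp9 and Dtx3l, partners in ADP-ribosylation and ubiquitination, are transcribed in opposite directions with overlapping 5′ ends and share their promoter peaks. Their most significant shared peak (chr16:35939725-35940174) had 7.04 and 26.2 in the no-gradient library and 3.67 and 32.5 in the 50 µL library. The ISRE of Parp9 lay under the other shared peak (chr16:35938732-35939147), with fold enrichments of 3.51 and 2.76 in the 2 libraries and summits 9 bp apart. At Rnf213, a large ubiquitin ligase (chr11:119392147-119392436 in the no-gradient list), the values were 5.79 and 15.5, and 2.83 and 17.5, for peaks upstream of the 5′ end whose summits were 1027 bp apart. A weaker peak at the 5′ end of Rnf213, with fold enrichments of 4.34 and 2.76, covered its ISRE in both lists. Parp14 had promoter peaks in the 50 µL library only, the most significant (chr16:35871289-35871844) with 4.44 and 52.0, and this peak covered an ISRE.

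All 4 genes of nucleotide and RNA metabolism had a promoter peak in both libraries. Rsad2, which encodes viperin, had the most significant 50 µL promoter peak of all 41 genes (chr12:26456426-26456950), with a fold enrichment of 6.09 and a −log10 q of 60.8, and its no-gradient peak had 5.12 and 10.6. Both peaks covered the ISRE printed above, 14 bp and 30 bp from their summits. Its neighbour Cmpk2, a mitochondrial nucleotide kinase, had 4.30 and 6.93 in the no-gradient library (chr12:26469904-26470106) and 3.13 and 12.7 at a different peak in the 50 µL library, with no ISRE in a window. At Isg20, an exonuclease (chr7:78913817-78914155 in the no-gradient list), the values were 4.04 and 6.85, and 3.64 and 23.1, at different peaks of the gene. Samhd1, which depletes deoxynucleotides (chr2:157135090-157135469 in the no-gradient list), had 4.36 and 11.9, and 3.00 and 34.2, and with 15 peaks in its gene region it had more 50 µL peaks than any other member.

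Among the membrane proteins, Bst2, the tether of budding virus, had a promoter peak in both libraries (chr8:71537359-71537677 in the no-gradient list), with fold enrichments of 5.77 and 5.11 and −log10 q of 11.0 and 53.3, summits 7 bp apart and 2 ISRE matches near each summit. Ifitm3, which blocks viral fusion, had a promoter peak in the 50 µL library only (chr7:141010639-141010838), with 2.38 and 4.64, the least significant among the best promoter peaks of the 38 genes. Of the remaining 3 genes, Ifi35 had 5.69 and 11.2 in the no-gradient library (chr11:101448343-101448707) and 4.11 and 25.2 in the 50 µL library, with summits 1 bp apart. Xaf1, which encodes an antagonist of an inhibitor of apoptosis, had a 50 µL peak (chr11:72301361-72301909) with 4.08 and 18.4. Ifi44 had no peak in its gene region in either list, and its nearest 50 µL peak lay 345235 bp from a TSS.

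The 41 genes had 30 distinct promoter peaks in the no-gradient list and 72 in the 50 µL list, and 9 and 23 of the genes had 2 or more (22.0% and 56.1%, against 7.98% and 27.7% of all protein-coding genes). All 30 no-gradient peaks overlapped a peak of the 50 µL list (98.3% of all promoter peaks did), and 31 of the 72 overlapped one in the other direction (43.1%, against 48.5%). The median distance between summits of the 30 overlapping peaks was 56.0 bp (range 1 to 1027), against 62.0 bp over all promoter peaks, and 22 of 30 lay within 100 bp (73.3%, against 65.8%). The median fold enrichment of promoter peaks was 4.83 for members and 5.41 for all genes in the no-gradient library, and 3.15 and 3.63 in the 50 µL library.

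**Figure D2:**
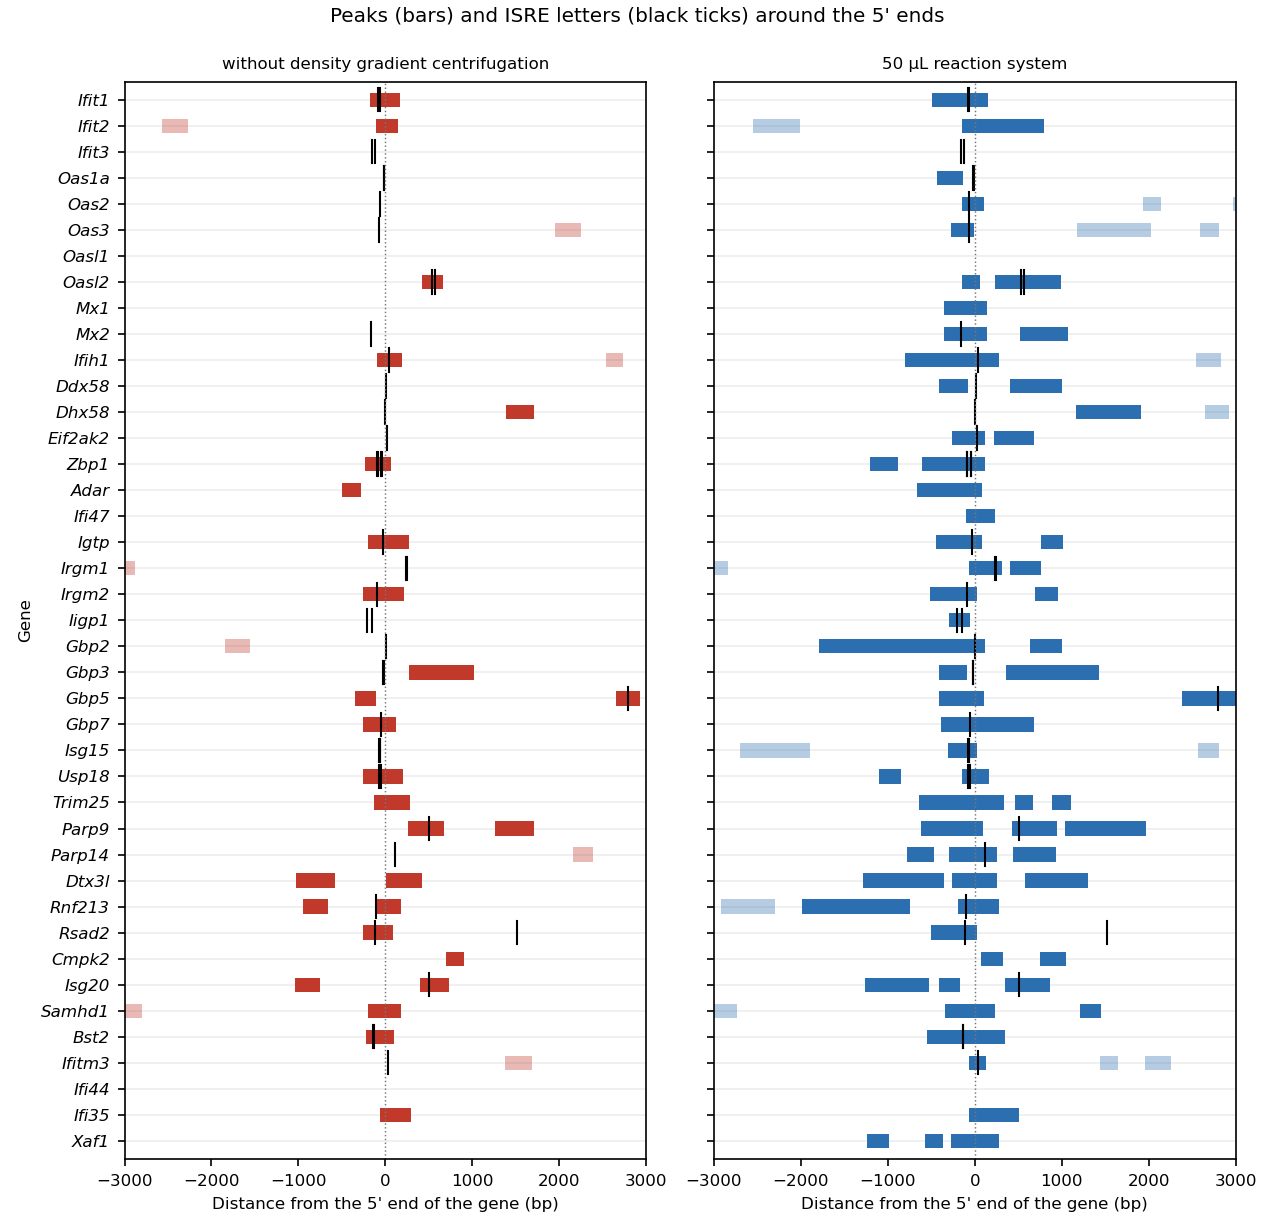
Peaks (bars) within 3 kb of the 5′ end of each member in the no-gradient library (left) and the 50 µL library (right), in bp along the direction of the gene, with promoter peaks in full colour, other peaks pale, and ISRE letters of the promoter windows as black ticks. Most ticks lie just upstream of a start, and 22 of 50 fall under a bar on the left and 36 of 50 on the right, counting windows of internal TSSs that can lie outside the plotted range.

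The promoters of the members were poor in CpG. The median ratio of observed to expected CpG in the 500 bases on either side of the 5′ end was 0.276 for members and 0.552 for all protein-coding genes, and 38 of 41 members fell in the 3 lower quintiles of this ratio. Promoter peaks were less common among all genes with few CpGs, so each quintile was read by itself. In the lowest quintile 5 of 13 members had a promoter peak in the no-gradient library and 12 of 13 in the 50 µL library, where 7.63% and 14.8% of all genes of that quintile had a peak there. In the next quintile 7 of 12 and 11 of 12 members had one, against 18.9% and 34.6%, and in the third, 8 of 13 and 12 of 13, against 46.9% and 63.3%. All 3 members of the fourth quintile had a peak in both libraries, against 69.9% and 81.9%, and no member fell in the fifth. Over the 2 lowest quintiles together, 12 of 25 members had a promoter peak in the no-gradient library, where 13.3% of all genes did, and 23 of 25 in the 50 µL library, where 24.7% did.

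**Figure D3:**
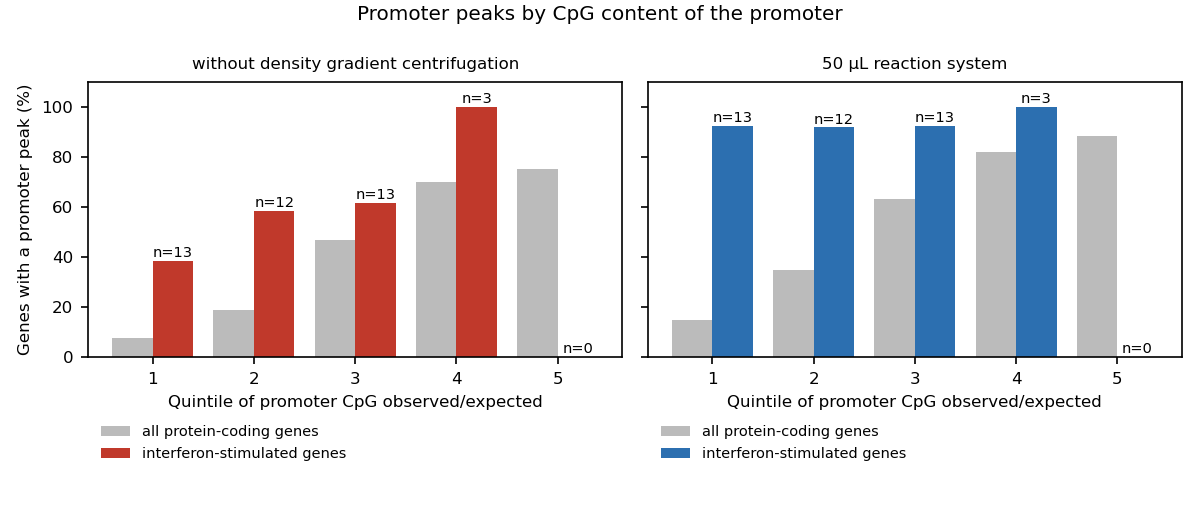
Share of genes with a promoter peak (%, from 0) by quintile of the promoter CpG ratio, from lowest to highest, for members (coloured) and all protein-coding genes (grey) in the no-gradient library (left) and the 50 µL library (right). The grey bars climb with the quintile, from 7.63% and 14.8% in the lowest, while 12 of 13 members of that quintile had a peak in the 50 µL library.

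Members had a median of 4 annotated TSSs against 3 for all protein-coding genes, and a gene with more TSSs has more windows in which a peak can count. Among the 8 members with 1 TSS, 4 and 7 had a promoter peak in the no-gradient and the 50 µL library, against 17.2% and 26.2% of all genes with 1 TSS. Among the 17 members with 2 to 4, 10 and 16 had a peak, against 37.6% and 50.2%. Among the 16 with 5 or more, 9 and 15 had a peak, against 67.4% and 83.0%.

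ISRE letters stood in the window from 250 bases before to 50 after the 5′ end of 23 of 41 members (56.1%, 39.7% to 71.5%) and of 3.55% of all protein-coding genes. When every annotated TSS was given such a window, 30 members held 50 ISREs (1 site counts for both Igtp and Irgm2), 42 of them in the 150 bases upstream of the nearest TSS. No ISRE letters were found in any window of Adar, Cmpk2, Dtx3l, Ifi35, Ifi44, Ifit2, Mx1, Oasl1, Samhd1, Trim25 and Xaf1, which says only that these letters are not in these windows. Of the 50 ISREs, 22 lay inside a peak of the no-gradient list, at 14 members, and 36 inside a peak of the 50 µL list, at 24 members. All 22 were covered in both lists. The median distance from a covered ISRE to the summit was 48.0 bp in the no-gradient library and 68.5 bp in the 50 µL library. At Ddx58, Dhx58, Gbp3, Ifi47, Ifit3 and Oas1a no ISRE of the windows was covered by a 50 µL peak, and of these only Ifit3 lacked a promoter peak.

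A match to the letters is a description and not evidence of binding. Within 100 bases of the summit, 13 of 30 member promoter peaks held ISRE letters in the no-gradient library (43.3%, 25.5% to 62.6%), against 1.94% of all promoter peaks. In the 50 µL library it was 18 of 72 (25.0%, 15.5% to 36.6%), against 2.71%. The GAS, searched as TTCNNNGAA, was in the 5′ window of 34.1% of members and 8.39% of all genes, and near the summit of 33.3% and 22.2% of member promoter peaks in the no-gradient and the 50 µL library, against 4.87% and 4.70%. Both motifs stood near the same summit in 6 member peaks of the no-gradient list and 8 of the 50 µL list. The ETS-IRF composite element, searched as GGAANNGAAA, which differs from the ISRE in the second letter only, was near 20.0% and 13.9% of summits, against 2.09% and 2.27%. The GC box GGGCGG was near 33.3% and 26.4% of member summits and 45.5% and 34.0% of all, and the TATA box TATAAA near 13.3% and 13.9%, against 3.69% and 6.75%. None of these motif shares was matched for CpG or base content, and the member promoters were poorer in CpG. The part of this in the shares was not tested.

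**Figure D4:**
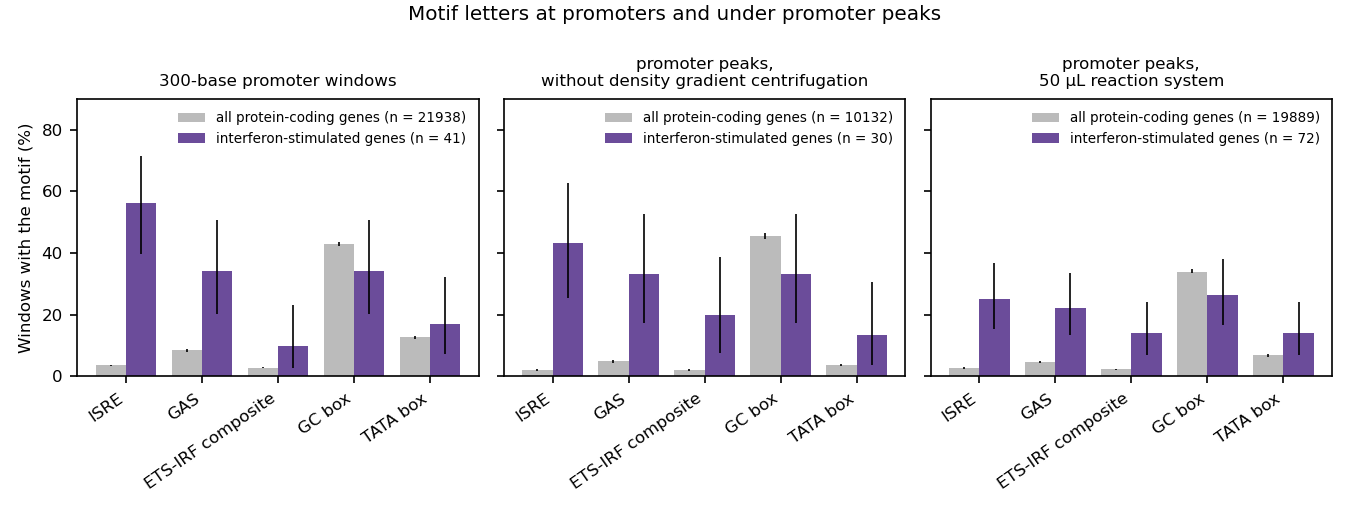
Share of windows (%, from 0) with each of 5 motifs for members (purple) and all protein-coding genes (grey), in the 300-base windows of the 5′ ends (left) and within 100 bases of promoter peak summits of the no-gradient (middle) and the 50 µL library (right), with exact 95% intervals that cover counting error only. ISRE letters were in 56.1%, 43.3% and 25.0% of member windows and in 3.55%, 1.94% and 2.71% of all.

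Members with and without ISRE letters at the 5′ end were set side by side. Of the 23 members with an ISRE in the 5′ window, 12 had a promoter peak in the no-gradient library and 22 in the 50 µL library, and of the 18 others 11 and 16 did. Over all protein-coding genes, a promoter peak was found at 39.1% and 51.8% of those with an ISRE and at 43.8% and 56.7% of those without.

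The wider gene regions held more peaks per length than those of all protein-coding genes. The gene regions of the members merge into 33 regions of 1.55 Mb, with 75 no-gradient peaks (4.85 per 100 kb, against 1.60 over all protein-coding gene regions) and 204 50 µL peaks (13.2 per 100 kb, against 5.37). Other genes lie in these regions as well. Of the peaks that were no promoter peak of a member, 7 and 24 had their summit within 1 kb of another gene's TSS. The number of genes per length was not matched, so the higher density cannot be assigned to the members. A peak in the gene region was found for 31 of 41 members in the no-gradient library, where 61.2% of all protein-coding genes had a peak in the gene region, and for 40 of 41 in the 50 µL library, where 73.0% did. With a fold enrichment of at least 4 it was 26 of 41 in the 50 µL library (63.4%), near the 61.4% of all protein-coding genes. Region peaks that were no promoter peak of a member and had their summit more than 1 kb from the TSS of any other gene numbered 38 and 108. ISRE letters were near the summits of 3 and 4 of them (7.89% and 3.70%), against 3.56% and 3.66% for such peaks of all gene regions.

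The most significant of these distant peaks lay in an intron of Rnf213 in both libraries (chr11:119428759-119429165 in the no-gradient list), 35967 bp and 35730 bp from the 5′ end by summit, with fold enrichments of 8.48 and 7.18 and −log10 q of 21.5 and 71.5. Both libraries also had a peak 4499 bp and 4509 bp upstream of Ddx58, with fold enrichments of 6.91 and 4.94. A peak 8547 bp and 8554 bp upstream of Ifih1 had 7.14 and 7.76. At Ifih1 and Rnf213 these peaks had a higher fold enrichment than the promoter peaks of the same gene in both lists, and Ddx58 had no promoter peak in the no-gradient list.

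Genes that carry the interferon signal, as opposed to genes it induces, mostly had promoter peaks in both libraries. Among 16 genes of the receptors and JAK-STAT signalling, 15 had a promoter peak in the no-gradient library and 16 in the 50 µL library, where 43.7% and 56.6% of all protein-coding genes did. Irf9, the DNA-binding subunit of ISGF3, had fold enrichments of 7.45 and 6.97 with −log10 q of 20.6 and 82.9. Socs1, an inhibitor of JAK kinases, had 4.92 and 5.76, and Tyk2 had 4.45 and 4.73. Jak1 had fold enrichments of 3.53 and 4.10, and Socs3 lacked a peak in the no-gradient list.

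Among other IRF transcription factors, Irf8, a regulator of myeloid and B cells, had fold enrichments of 3.53 and 5.14 with −log10 q of 5.14 and 64.5. Irf3 had 6.37 and 5.04, Irf7 had 4.19 and 4.18, and Irf1 had 3.58 and 3.80. Genes for the induction of interferon had promoter peaks at 8 of 12 and 12 of 12, and Cgas, Tlr7, Tlr9 and Traf3 lacked one in the no-gradient list. Myd88, the adaptor of Toll-like receptors, had 7.53 and 6.01, Mavs 4.61 and 4.67, Tmem173, which encodes STING, 4.08 and 3.90, and Tlr9 a 50 µL peak with 3.95.

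Close relatives of the members had promoter peaks in smaller numbers. Of 27 further genes (relatives from the Oas, Ifit, Gbp, IRG and Ifitm families, and Ifi44l), 8 had a promoter peak in the no-gradient library and 12 in the 50 µL library (29.6% and 44.4%, against 56.1% and 92.7% of the members). In the 50 µL library the exact interval of 25.5% to 64.7% lay below that of the members, and in the no-gradient library the intervals overlapped (13.8% to 50.2% for the relatives). The shares of all protein-coding genes, 43.7% and 56.6%, lay inside the intervals of the relatives. These counts are not independent, since Ifit1bl2 was counted through a promoter peak it shares with Ifit1, and Gbp4, Gbp8, Gbp9, Oas1b and Oas1c each share a promoter peak with another relative. The most significant 50 µL peaks were those of Gbp10, with a fold enrichment of 8.11, and Gbp9, with 4.19. Oas1b and Oas1c share a peak with −log10 q of 27.3 and 31.8. Gene clusters with near-identical copies make reads hard to place, and the part of this in the missing peaks was not tested.

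**Figure D5:**
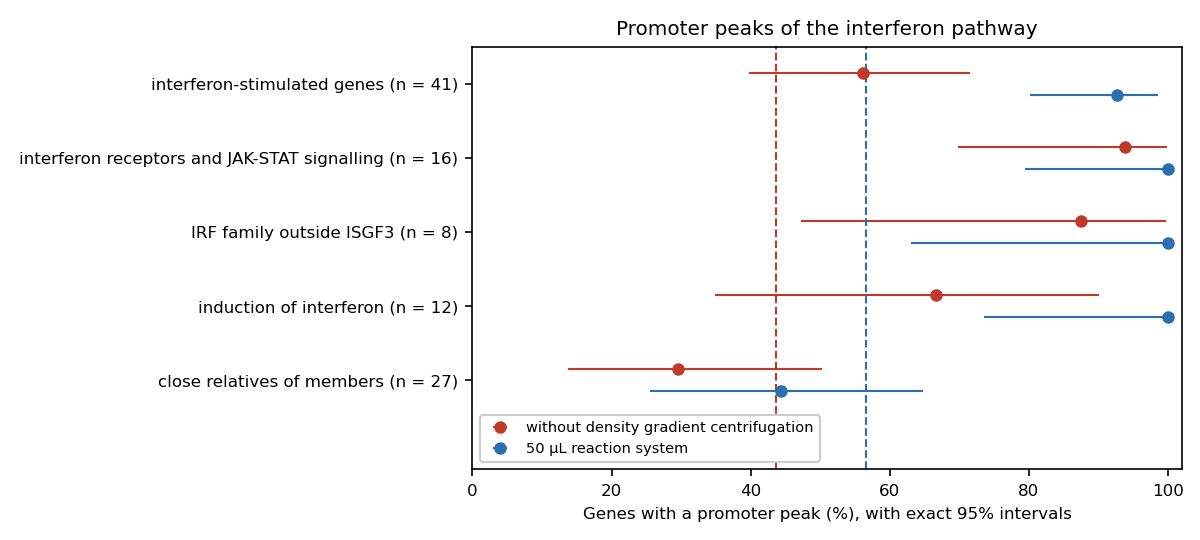
Share of genes with a promoter peak (%) in the no-gradient library (red) and the 50 µL library (blue) for the members and 4 lists of the interferon pathway, with exact 95% intervals that cover counting error only and dashed lines at 43.7% and 56.6% for all protein-coding genes. The signalling and IRF lists lie to the right of both lines, and the close relatives lie to the left of their lines with intervals that reach them.

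The tissue label was checked with 6 genes each. All 6 B cell genes, 5 of 6 T cell genes (all but Cd3g) and 4 of 6 genes of red pulp macrophages and myeloid cells (all but Lyz2 and Adgre1) had a promoter peak in the 50 µL library, and none of 6 genes of liver, pancreas, heart, kidney and lung did. The exact intervals of the B cell (54.1% to 100%), T cell (35.9% to 99.6%) and myeloid genes (22.3% to 95.7%) there hold the 56.6% of all protein-coding genes. That of the other tissues (0% to 45.9%) lay below it. In the no-gradient library the counts were 3, 1, 1 and 0. The intervals of B cell (11.8% to 88.2%), T cell and myeloid genes (0.421% to 64.1% each) and of other tissues (0% to 45.9%) all hold the 43.7% of all protein-coding genes. With so few genes this check cannot decide on the tissue label in that library, and it does not bear it out. Among the members, 6 had more than 20% of the 32-base sequences around the 5′ end elsewhere in the genome and 30 had less than 10%, with a median of 5.58%.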

How the data were processed

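Accessible chromatin of 2 mouse FFPE spleen libraries was deposited as 1 peak list per library on mm10. According to the study's methods, the authors aligned reads with BWA, removed duplicates, called peaks with MACS2 and removed blacklisted regions. The submitters' processing notes name BWA, SAMtools, hg38 and mm10. Whether reads were filtered by mapping quality is not given in the sources used here. Of the columns the authors deposited, the score and the −log10 p were not used. The fold enrichment, a ratio of pileup to local background, the −log10 q and the summit were taken as deposited. These values depend on depth, which is unknown, so they rank peaks within a list and are set side by side between lists only as descriptions.

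Genes and TSSs came from GENCODE vM21, whose chromosomes match the peaks, bases from GRCm38 and 250 base promoter stretches from the RefSeq table, which held 32 of the 41 members. Older symbols were matched through RefSeq synonyms. Overlap meant at least 1 bp. Motifs were searched on both strands. The background was all 21938 protein-coding genes, members included. Shares have exact (Clopper-Pearson) 95% intervals. With 1 library per condition no test was made. The members and lists were chosen with earlier results of these data known. Named were all members, by role, with values for those with a promoter peak, and from other lists up to 4 genes with the most significant 50 µL peak and those without a peak where few. The gene pair examined for shared sequence, the distant peaks named and the sequences shown were chosen after values were seen. Counting, motif search and the search for repeated 32-base sequences were checked on simulated data. Alternatives were other promoter and region windows, stricter peaks, lists of equal length, assignment to the nearest TSS and other motif windows. Tables were made in Python 3.11.15 (pandas 2.3.3, numpy 2.4.6), intervals with scipy 1.17.1 and plots with matplotlib 3.10.9.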

Additional observations from a re-analysis of the deposited data

How the results depend on the processing

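Limiting peaks to a fold enrichment of at least 4 lowered the members with a promoter peak to 14 in the 50 µL library (34.1%, against 38.4% of all genes) and to 8 in both (19.5%, against 32.1% of all genes). It also lowered the members with a 50 µL peak in the gene region to 26 (63.4%, against 61.4%) and the 50 µL peaks in member gene regions to 49. With the 50 µL list at the length of the shorter list, 21 members had a promoter peak there (51.2%, against 45.2% of all genes). In both lists 15 members then had one (36.6%, against 40.0% of all genes), and the shortened list held 66 peaks in member gene regions. Counting the gene body alone left 40 and 118 peaks in the no-gradient and the 50 µL list. ISRE letters followed by CT were in the window of 14 members, against 0.356% of all protein-coding genes. ISRE letters were near 9 summits of 50 µL promoter peaks within 50 bases (against 1.33% of all promoter peaks) and in 28 whole peaks (against 7.88%). In the RefSeq promoters, an alternative chosen after seeing the data, 18 of 32 members held ISRE letters, against 4.02% of genes. For these results, 36 other values under the alternatives stayed within 1.5 times the value in the text. Counts of the other motifs near summits moved further under 11 alternatives, with no TATA box within 50 bases of the summit of any no-gradient promoter peak of a member. Among the 36 values, windows of 2 kb gave 29 members with a no-gradient promoter peak, against 45.9% of all protein-coding genes. The same 2 kb windows gave 29 in both lists, against 45.8%. Assigning each peak to its nearest TSS left 23 members in the no-gradient library, against 37.5%. That share lies below the interval of 39.7% to 71.5% given for 23 of 41. No paired analysis was possible because each condition had 1 library. A missing peak shows only that none was called at an unknown depth.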
